A study of Arabidopsis thaliana with 9 samples.

Results

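The transcripts described here rose in Arabidopsis thaliana pistils after pollination with wild-type pollen and fell well short of that level when the pollen lacked the transcription factors MYB97, MYB101 and MYB120. They were measured on arrays, where a probe set is a group of short probes read together for 1 transcript or for a few similar ones. A probe set was taken when its mean log2 intensity rose by 1 or more from unpollinated pistils to wild-type pollen, and its mean with mutant pollen lay 1 or more below that with wild-type pollen. Of 22746 probe sets tested, 35 met both conditions, and 6 of them (for AT5G09280, AT3G19940, AT5G26250, AT1G02550, IAA31 and HAT2) were set aside, which left 29. Since both differences chose the members, they are given as a description, without a test.

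The 3 groups had 3 biological replicates each, and every array held RNA of pistils from male sterile ms1 plants in the Ler-0 background, pooled at 100 pistils a collection. All pistils were at stage 14, and ms1 plants shed no functional pollen of their own. The groups were unpollinated pistils, pistils left for 8 hours with pollen of the wild type Col-0, and pistils left as long with Col-0 pollen carrying the alleles myb97-1, myb101-4 and myb120-3 together. The wild-type and mutant arrays named below are those of pistils with wild-type and with mutant pollen, and levels in a series are given in the order of replicates 1, 2 and 3. RNA came from pistil and pollen tubes at once, so fewer tubes and less of a transcript per tube cannot be told apart, nor can tube and pistil origin, and no collection time is given for the unpollinated pistils.

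MYB97, MYB101 and MYB120 are R2R3-type MYB proteins related to the GAMYB factors that act in gibberellin signalling of cereals. They are present in the nuclei of growing pollen tubes, and tubes of the triple mutant reach the ovules but often fail to stop growing and to burst, so that sperm are not released. A pollen tube that grows through the pistil secretes enzymes and small peptides into the wall and the matrix around it.

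Of the 29 probe sets, 9 were listed for exactly 1 gene, 6 for several genes and 14 for none in the platform annotation. The genes listed alone were AT5G46200, AT4G26830, AT3G26870, AT1G06540, AT1G66220, AT5G11820, AT5G26100, AT3G09590 and AT3G26880. AT4G26830 belongs to glycosyl hydrolase family 17, which includes callose-degrading enzymes, AT1G66220 encodes a subtilase (a secreted serine protease), and AT3G09590 a protein of the CAP superfamily, to which the PR-1 proteins belong. AT3G26870 and AT3G26880 encode small secreted proteins of the plant self-incompatibility S1 family, named after a poppy stigma protein, and in the TAIR10.1 annotation the genes lie on the same chromosome with 1 gene between them. Among the 6 probe sets with several genes, all listed genes were of the GDSL class of secreted esterases and lipases for 3 probe sets and of the S1 family for 1. The share of S1 or GDSL probe sets on the whole array was not counted, and nothing is read from these counts. The signal of a probe set with several genes cannot be divided among them.

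**Figure D1:**
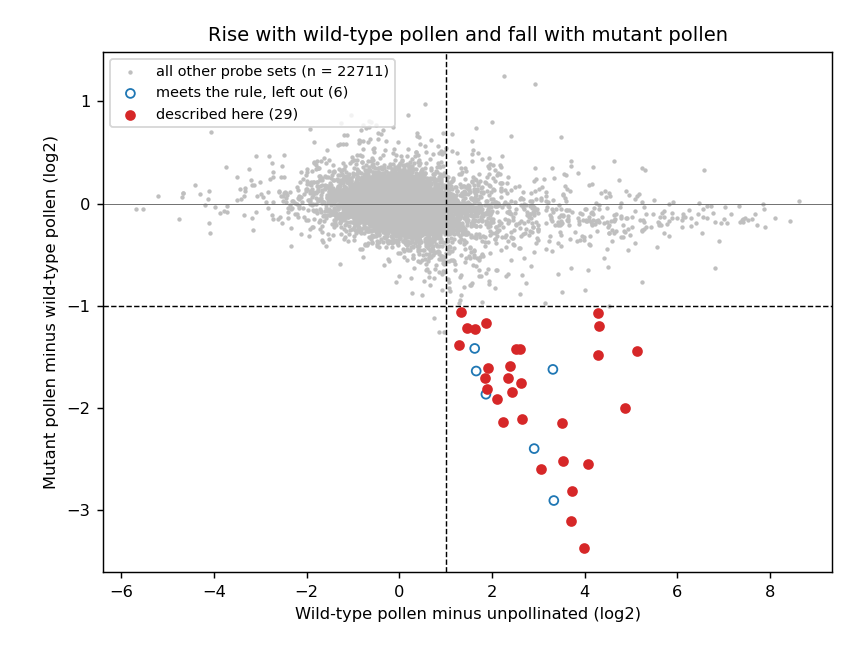
Each point is 1 probe set, with its rise with wild-type pollen over unpollinated pistils on the x axis and its difference between mutant and wild-type pollen on the y axis (both log2, means of 3 arrays); dashed lines mark the thresholds of 1 and -1. The 29 members (red) lie to the right of and below the dashed lines by the rule, at differences of -3.37 to -1.06, and open circles are the 6 genes set aside. Some other probe sets (grey) left of the rise threshold also lie below -1, such as 252897_at (-1.26).

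The rise was common and the fall was rare. Of all probe sets 1027 (4.52%) rose by a log2 of 1 or more with wild-type pollen, and 38 (0.167%) lay 1 or more lower with mutant than with wild-type pollen. The wild-type arrays enter both differences. Across the 29 members the rise ran from 1.28 to 5.14 with a median of 2.59, and the difference between mutant and wild-type pollen from -3.37 to -1.06 with a median of -1.71. By the limma fit over all probe sets, with a Benjamini-Hochberg adjusted p under 0.05, 29 of 29 members were called higher with wild-type pollen (23.4% of all probe sets were), and 28 of 29 were called lower with mutant pollen (0.286% of all), AT3G26880 being the exception. The mutant arrays all lay below the wild-type arrays in 29 of 29 members, against 5.23% of all probe sets. The members had been chosen on these differences, so the counts only restate the choice.

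Members just inside the fall threshold were 255993_at (-1.062), 261673_at (-1.070) and 263087_s_at (-1.163), none with a listed gene. Just outside it, among raised probe sets with 1 listed gene, were AT3G19690 (-0.997), AT2G40310 (-0.974) and AT1G61080 (-0.958). Near the rise threshold, AT5G11820 was inside at 1.28, and 252897_at was outside at 0.97.

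Before pollination the members were dim. Their mean log2 intensity in unpollinated pistils ran from 3.23 to 5.56 with a median of 3.81, in a table whose median probe set was at 6.70. No detection calls were used, so it is not known whether any of these transcripts was present in pistils before pollination. The means over the wild-type arrays ran from 4.70 to 9.09, and those over the mutant arrays from 3.54 to 7.84.

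The steepest fall of a gene listed alone was that of AT5G46200. It had log2 levels of 4.08, 4.11 and 4.19 on the unpollinated arrays, 7.69, 8.02 and 7.76 on the wild-type arrays, and 4.27, 5.54 and 4.35 on the mutant arrays. Mutant arrays 1 and 3 were close to the unpollinated arrays while array 2 stood apart, though still below all wild-type arrays. The level was 13-fold higher with wild-type pollen than without (log2 3.69 ± 0.27 SE, n = 3 per group) and 8.59-fold lower with mutant than with wild-type pollen (log2 -3.10 ± 0.27). The SD was 0.710 among mutant arrays and 0.174 among wild-type arrays, so the pooled SE understates the spread of the mutant group.

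AT4G26830, of glycosyl hydrolase family 17, was at 3.52, 3.89 and 3.83 on the unpollinated arrays, at 7.71, 8.20 and 7.56 on the wild-type arrays and at 4.96, 5.94 and 4.94 on the mutant arrays. The 3 groups did not overlap, and mutant array 2 was again the highest of its group. The rise was 16.9-fold (log2 4.08 ± 0.26 SE, n = 3 per group), and the level was 5.83-fold lower with mutant pollen, where it was still 2.89-fold above unpollinated pistils (log2 1.53 ± 0.26).

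The neighbouring S1 family genes differed in how much of the rise was lost. AT3G26870 was at 3.26, 3.29 and 3.14 on the unpollinated arrays, 5.91, 6.08 and 5.66 on the wild-type arrays, and 3.58, 4.00 and 3.74 on the mutant arrays. Its rise was 6.29-fold, and with mutant pollen it was 4.31-fold below wild-type pollen (log2 -2.11 ± 0.13 SE, n = 3 per group). AT3G26880 was at 3.51, 3.26 and 3.51 on the unpollinated arrays, 7.64, 8.25 and 7.30 on the wild-type arrays, and 6.26, 7.04 and 6.31 on the mutant arrays. Its rise was larger, at 19.7-fold, and its difference between mutant and wild-type pollen smaller, at 2.29-fold (log2 -1.19 ± 0.25), with wild-type arrays that spread widely (SD 0.481). The nearest arrays of AT3G26880 were mutant array 2 and wild-type array 3, and the groups did not overlap. The S1 probe set with several listed genes, 250325_s_at, rose by 1.91 and had a difference of -1.61 ± 0.27. The difference between the S1 genes was not tested, because each was chosen on it.

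AT1G06540 had the highest rise of the genes listed alone. It was at 4.05, 4.16 and 4.45 on the unpollinated arrays, 9.04, 9.30 and 8.91 on the wild-type arrays, and 6.68, 7.69 and 6.90 on the mutant arrays. It was thus 29.1-fold higher with wild-type pollen and 7.30-fold higher with mutant pollen than in unpollinated pistils, so that most of the log2 rise was present with either kind of pollen. The subtilase gene AT1G66220 behaved similarly, at 3.64, 3.75 and 4.04 on the unpollinated arrays, 8.01, 8.22 and 8.07 on the wild-type arrays, and 6.22, 7.01 and 6.63 on the mutant arrays. Its rise was 19.5-fold with wild-type and 7-fold with mutant pollen, and the 3 groups did not overlap.

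The other genes listed alone had small rises. AT5G11820 was at 3.87, 3.58 and 3.49 on the unpollinated arrays, 4.75, 5.12 and 4.91 on the wild-type arrays, and 3.38, 3.85 and 3.41 on the mutant arrays. Its mutant and unpollinated arrays overlapped (log2 difference -0.10 ± 0.15 SE, n = 3 per group). AT5G26100 was at 4.35, 4.33 and 4.22 on the unpollinated arrays, 5.79, 5.86 and 6.14 on the wild-type arrays, and 4.72, 4.90 and 4.50 on the mutant arrays, and the 3 groups did not overlap. The CAP superfamily gene AT3G09590 was at 4.32, 4.12 and 4.41 on the unpollinated arrays, 5.76, 5.91 and 5.56 on the wild-type arrays, and 4.83, 4.39 and 4.35 on the mutant arrays. Here array 1 was the highest mutant array, and the mutant and unpollinated arrays overlapped.

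**Figure D2:**
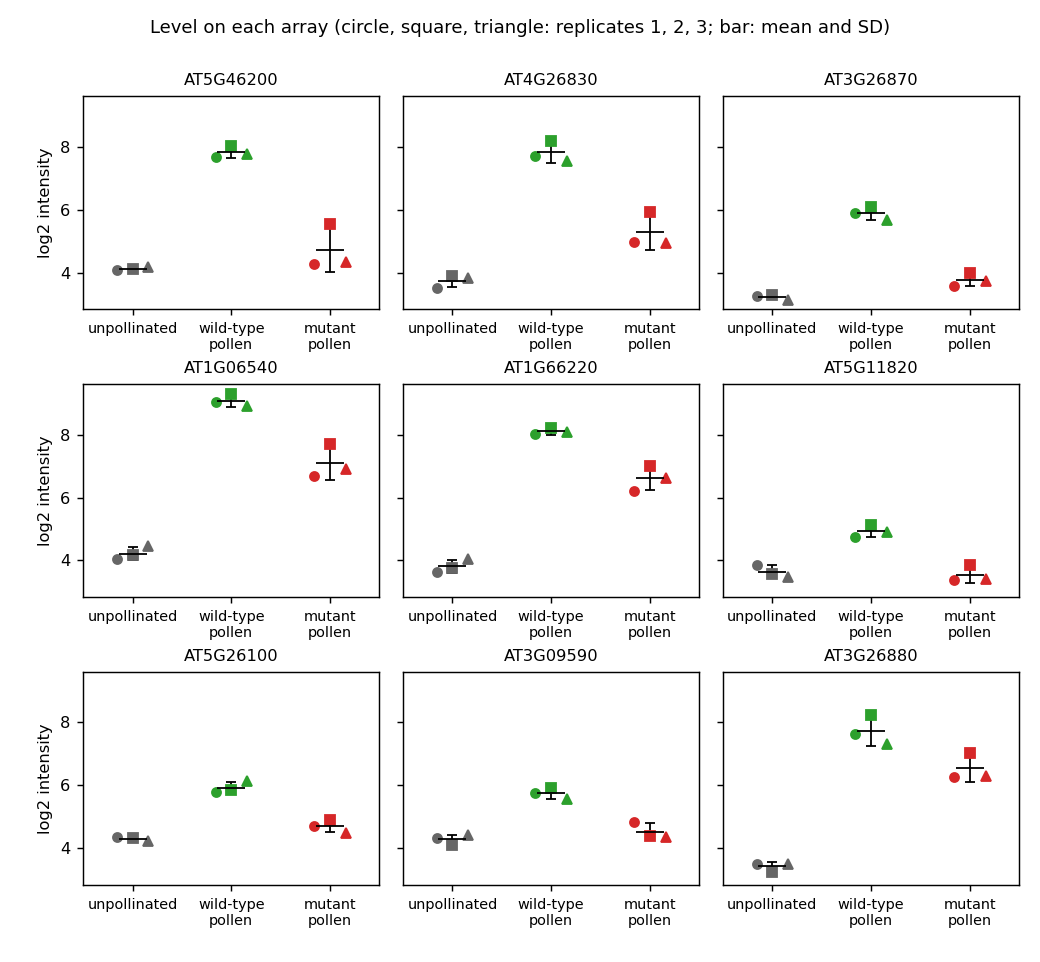
Log2 intensity of the 9 genes listed alone on each array, without pollination (grey), after wild-type pollen (green) and after mutant pollen (red); symbols are replicates and bars are the mean and SD of 3 arrays. The mutant arrays lie below the wild-type arrays in all 9 genes, and the square of mutant array 2 is the highest mutant array in 8 of them.

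Of the probe sets with several listed genes, those of the GDSL class differed widely in how much of the rise was lost. Probe set 255863_s_at was at 3.66, 3.45 and 3.68 on the unpollinated arrays, 6.52, 7.06 and 6.37 on the wild-type arrays, and 4.07, 4.19 and 3.89 on the mutant arrays, a difference of -2.60 ± 0.16 between mutant and wild-type pollen. Its 3 mutant arrays lay close together (SD 0.154). Probe set 250894_s_at was at 4.76, 4.96 and 4.11 on the unpollinated arrays, 6.88, 7.13 and 6.55 on the wild-type arrays, and 4.19, 5.35 and 4.62 on the mutant arrays. Mutant arrays 1 and 3 lay within the unpollinated range, and array 2 lay above it. Probe set 263397_s_at had the largest rise of all members, 35.2-fold, from 3.38, 3.72 and 3.56 to 8.63, 8.99 and 8.46, and was still at 7.06, 7.52 and 7.19 on the mutant arrays (13-fold above unpollinated pistils). The share of the rise still present with mutant pollen was 72.0% on the log2 scale and 35% on the linear scale for 263397_s_at, and 4.95% and 2.97% for 250894_s_at. The other 2 probe sets with several genes were 249660_at, with a rise of 3.72 and a difference of -2.81 ± 0.33, and 249496_s_at, with 1.90 and -1.81 ± 0.21.

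The 14 probe sets without a listed gene rose by 1.33 to 4.29 and had differences between mutant and wild-type pollen of -3.37 to -1.06, with a median of -1.71. The steepest fall of all 29 was among them. Probe set 254439_s_at was at 3.63, 3.58 and 3.73 on the unpollinated arrays, 7.58, 7.88 and 7.43 on the wild-type arrays, and 3.92, 5.45 and 3.41 on the mutant arrays, a 10.4-fold lower level with mutant than with wild-type pollen. Its mutant arrays had the widest spread of all members (SD 1.064), since array 2 was far above the other two.

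The share of the rise kept with mutant pollen was computed for each mutant array as its log2 level above the unpollinated mean, divided by the rise of the wild-type mean. A value of 0% is the unpollinated level and 100% the wild-type level. The median over the 29 members was 22% on mutant array 1, 45.1% on array 2 and 19.3% on array 3. The ranges were -20.9 to 68.2%, 7.34 to 84.0% and -18.7 to 78.0%. In the 992 other probe sets that rose by 1 or more the medians were 91.7%, 99.2% and 96.9%. The low share of the members follows from the choice, but the gap between array 2 and the other mutant arrays does not. On this log2 scale it was wider in the members than in the other raised probe sets. The gap was also present in the 6 genes set aside, with log2 medians of 5.47%, 33.6% and 2.96% on mutant arrays 1, 2 and 3. On the linear scale the medians were 9.82%, 19.2% and 7.17% in the members and 81%, 97.4% and 91.9% in the other raised probe sets. There the gap of array 2 to array 1 was narrower in the members, and that to array 3 wider.

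Averaged over the mutant arrays, 14 members kept under 25% of the log2 rise, 10 kept 25 to 50% and 5 kept more than 50%. The lowest shares were -7.95% for AT5G11820, 4.63% for 249496_s_at and 4.95% for 250894_s_at, and the highest 75.1% for 261673_at, 72.2% for AT3G26880 and 72.0% for 263397_s_at. Of the genes listed alone, AT1G66220 kept 65.5%, AT1G06540 59.0%, AT4G26830 37.6%, AT5G26100 25.1%, AT3G26870 20.6%, AT3G09590 16.3% and AT5G46200 16%. The members that kept over 50% were AT1G06540, AT1G66220, AT3G26880, 263397_s_at and 261673_at, which were the 5 with the largest rises (4.29 to 5.14). A fall of at least 1 leaves little to keep where the rise was small, so the threshold itself ties a high share to a large rise. On the linear intensity scale the median share was 12.7% in place of 25.1%, with 24 members under 25% and none above 50%, since a log2 share gives weight to the first doublings above a dim level.

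**Figure D3:**
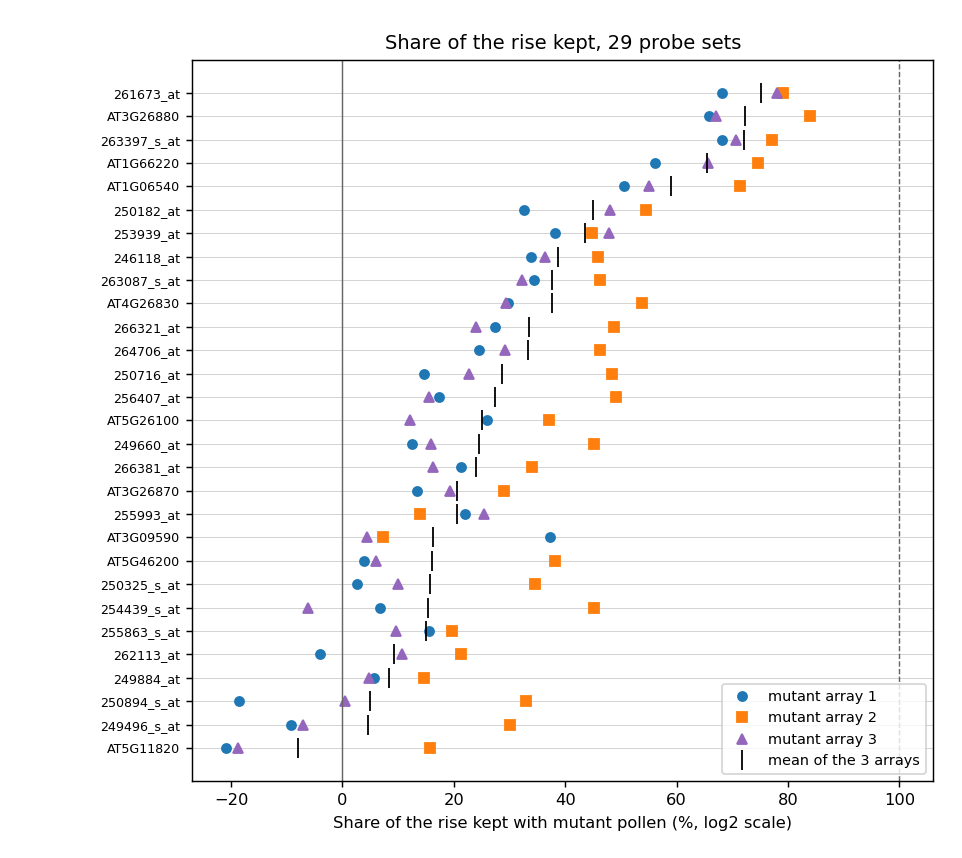
Share of the rise kept with mutant pollen (percent, log2 scale) for each of the 29 probe sets, ordered by the mean of the 3 mutant arrays (black tick); 0% is the unpollinated mean and 100% the wild-type mean. Mutant array 2 (square) is to the right of arrays 1 and 3 in 26 of the 29, and no array reaches 100%.

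The comparison of mutant pollen with unpollinated pistils gives what was left of the response. The log2 difference ran from -0.10 to 3.70 over the members, with a median of 0.64. By the same fit 19 of 29 passed as higher than in unpollinated pistils, against 22.3% of all probe sets and 99.0% of the other raised ones, and 10 did not pass. This contrast is the sum of those that chose the members, so the count is a description. In 21 of 29 all mutant arrays lay above all unpollinated arrays, against 27.1% of all probe sets. Of the genes listed alone, AT5G46200 (0.59 ± 0.27), AT5G11820 (-0.10 ± 0.15) and AT3G09590 (0.24 ± 0.14) did not pass. AT5G26100 passed (0.41 ± 0.12, limma adjusted p = 0.0192), but not after renewed quantile normalization (adjusted p = 0.109), without unpollinated array 3 (0.0526) or without mutant array 2 (0.0744), in a range of 0.00934 to 0.109 over the alternatives. The value of AT5G46200 rested on mutant array 2, without which it was 0.18, and it passed without mutant array 1 alone (limma adjusted p = 0.044, against 0.107 with all arrays and up to 0.224 over the alternatives).

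The order of the arrays within a group was not used in the choice. Mutant array 2 was the highest of the mutant arrays in 26 of 29 members (89.7%), against 55.5% of the other raised probe sets and 33.4% of all. It exceeded the mean of mutant arrays 1 and 3 by a median log2 of 0.46 in the members and 0.12 in the other raised probe sets. Wild-type arrays showed a like order. Wild-type array 2 was the highest of its group in 26 of 29 members, against 28.5% of the other raised probe sets, and exceeded the mean of wild-type arrays 1 and 3 by a median of 0.33, against -0.01. Sets closer to the members in rise or fall are given beside them. Among 410 other probe sets that rose by a log2 of 2 or more, mutant array 2 was highest in 71.5% (median excess 0.2). Wild-type array 2 was highest in 22.9% of these (-0.05). Among 61 other raised probe sets with a fall of 0.5 to 1, wild-type array 2 was highest in 50.8% (median excess 0.16) and mutant array 2 in 60.7% (0.22). Among the 6 genes set aside, wild-type array 2 was highest in 4 (0.30) and mutant array 2 in 5 (0.67). No difference between these sets and the members was tested, and the order is not called particular to the members. Members can share a pistil pool and an array, so they are not independent counts, and no test was made. The SD was larger among mutant than among wild-type arrays in 20 of 29 members, against 53.6% of all probe sets.

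Mutant array 2 stood closer to wild-type array 1 (r = 0.9975 across probe sets) than to either other mutant array, while mutant array 1 was closest to mutant array 3 (0.9957) and mutant array 3 to mutant array 2 (0.9969). Without mutant array 2, the rule picked 35 probe sets, all 29 members among them, and the members' median share kept was 19.1%. The RNA of the mutated genes has no listed probe set, so no array was checked against its genotype label.

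**Figure D4:**
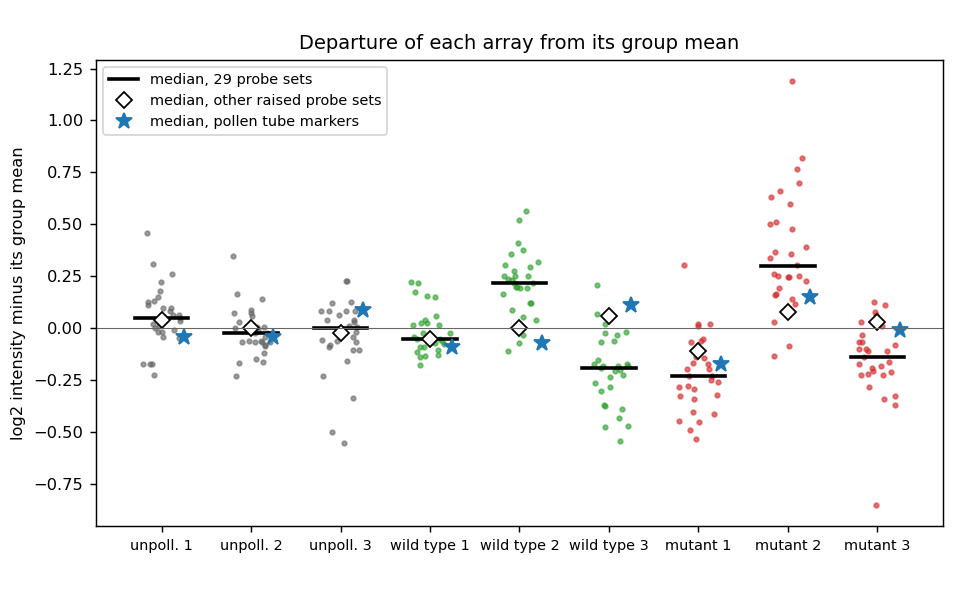
Log2 intensity of each of the 29 members minus the mean of its group, on each of the 9 arrays (points, black line for the median), with the median of the 992 other raised probe sets (diamond) and of 6 pollen tube markers (star). Members are high on wild-type array 2 (median 0.22) and mutant array 2 (0.30) and low on wild-type array 3 (-0.19) and mutant array 1 (-0.23). On the same arrays, in that order, the tube markers are at -0.07, 0.15, 0.11 and -0.17.

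Levels of known pollen tube genes are given beside these values. They were not tested as a measure of the number of tubes. Of a list of 15 tube markers 6 were measured, and all 6 were higher with either kind of pollen than without. Their summed intensity was 123.5 to 149.7 on the unpollinated arrays, 6733.3 to 7929.0 on the wild-type arrays and 5992.0 to 7301.0 on the mutant arrays. LAT52 (a secreted pollen protein, AT5G45880) made up most of the sums with pollen. Its mean log2 level with wild-type pollen was 12.42, against 6.99 to 9.49 for the others. Between mutant and wild-type pollen the median of the list was -0.12, with LAT52 at -0.14 ± 0.13 and PLIM2a (an actin-bundling protein) at 0.01 ± 0.16. The pollen actin gene ACT12 was at 0.11 ± 0.09 and the tube integrity kinase gene ANX2 at -0.26 ± 0.11. None of the 6 passed the limma test (0.286% of all probe sets passed as lower), and 1 had an unadjusted p under 0.05. These markers kept a median of 93.6%, 101% and 98.8% of their log2 rise on mutant arrays 1, 2 and 3. On the linear scale these medians were 76.9%, 103% and 94.6%. Mutant array 2 was their highest mutant array in 5 of 6, but wild-type array 2 was their highest wild-type array in 0 of 6. Their part in the fall of the members and in the order of the arrays was not tested.

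Among 16 genes of tube reception and integrity, 7 were measured. With wild-type pollen 6 rose (23.4% of all probe sets were called higher). The gene not called was FER (0.16 ± 0.09), which was bright in unpollinated pistils (mean log2 10.4). ANX2 is also among the tube markers above, so the lists overlap. Between mutant and wild-type pollen none of the 7 passed by limma (2 at an unadjusted p under 0.05), with a median of -0.16. They included the receptor kinase genes ANX1 (-0.39 ± 0.13) and BUPS1 (-0.19 ± 0.22), which keep the growing tube intact, and MDIS1 (-0.16 ± 0.13), a receptor for ovule attractants. Of 9 genes of gibberellin reception and DELLA repressors 4 were measured. With wild-type pollen 2 of them fell (20.2% of all probe sets did), the receptor gene GID1A at -0.67 ± 0.13 and SLY1, for an F-box protein that removes DELLA repressors, at -0.63 ± 0.11. None of the 4 passed between mutant and wild-type pollen, also without adjustment. None of the 8 GAMYB-like MYB genes had a listed probe set of its own.

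Markers of other cells did not pass between mutant and wild-type pollen in any of the lists by the limma fit. Only 0.286% of all probe sets passed as lower, so nothing is read from these counts or those of the lists above. The share of all probe sets with an unadjusted p under 0.05 was not counted. The 1 measured sperm marker of 7, MGH3, was at 0.16 ± 0.10. Of 13 synergid, egg and central cell markers 5 were measured. Their summed intensity was 1433.6 to 1651.2 on the unpollinated arrays, 1544.4 to 1775.1 on the wild-type arrays and 1625.9 to 1737.7 on the mutant arrays. FER, also in the list of tube reception and integrity, dominated these sums. Its mean log2 level in unpollinated pistils was 10.4, against 4.33 to 5.61 for the others, so the sums say little about those. Between mutant and wild-type pollen 2 of the 5 had an unadjusted p under 0.05, among them the egg cell gene EC1.2 at 0.61 ± 0.17. The mean log2 level of EC1.2 was 5.42 without pollination, 4.64 with wild-type and 5.25 with mutant pollen. Of 13 carpel and ovule markers 2 were measured, the transmitting tract regulator SPT at a mean log2 level of 7.61 and the ovule gene INO at 7.34 on the wild-type arrays, and their summed intensity was 278.6 to 343.7 on the unpollinated, 333.4 to 376.3 on the wild-type and 344.6 to 369.4 on the mutant arrays. Of 12 stamen, petal and tapetum markers 3 were measured, with a summed intensity of 34.3 to 36.5 on the unpollinated, 34.1 to 37.4 on the wild-type and 35.5 to 35.8 on the mutant arrays. In the sperm, carpel and stamen lists 0 markers had an unadjusted p under 0.05 between mutant and wild-type pollen.

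The fall was also read in arrays left out of the choice. The rule, with the same 6 genes set aside, was applied to the arrays of 2 replicate numbers, and the arrays of the remaining number were then read. With replicate 1 left out, 31 probe sets were picked, 27 of them members, and the mutant array lay below the wild-type array in 31 of 31, with a median of -1.97 against -1.55 in the choosing arrays. With replicate 2 left out, the mutant array was below in 31 of 32, with a median of -1.50 against -1.72. With replicate 3 left out, it was below in 33 of 35, with a median of -1.60 against -1.56. Over all probe sets 43.2%, 46.5% and 58.9% were below in the same arrays. A fall of 1 or more was seen in 27 of 31, 28 of 32 and 26 of 35 of the picked probe sets, against 0.330%, 0.233% and 0.185% of all. The rise with wild-type pollen was present in the left-out arrays for 31 of 31, 32 of 32 and 35 of 35. The rule, its thresholds and the genes set aside had been settled with all 9 arrays known, and 27 to 29 of the probe sets picked each time were members, so these values describe how even the fall was across replicates and are no independent support for it. The left-out arrays are 1 per group, so no test was made, and the replicate numbers served only to name which arrays were set aside.

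**Figure D5:**
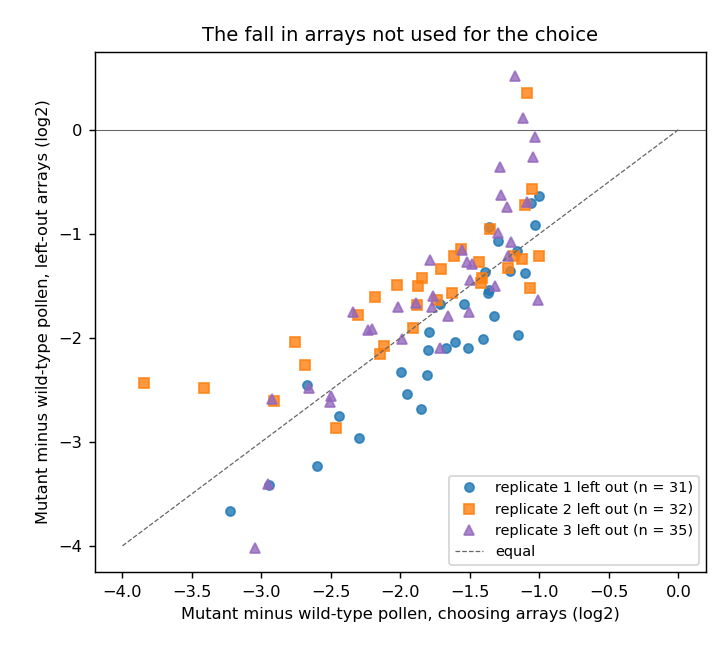
Difference between mutant and wild-type pollen (log2) in the arrays that chose a probe set (x axis, means of 2 arrays per group) and in the arrays left out (y axis, 1 array per group), with the left-out replicate number as colour and symbol. Most points lie below 0 and near the dashed line of equal values, and 3 points, all chosen near the threshold of -1, lie above 0.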

How the data were processed

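The authors deposited 1 table of array intensity per probe set for 9 arrays. The submitters' processing notes name Partek, the Affymetrix Expression Console and RMA, and give no version. Per the labels, RNA was amplified and labelled with biotin from pistil total RNA. The deposited intensity values were linear (6.4 to 27175.1), so log2 was taken first. Of the probe sets, 64 controls were removed, and 22746 remained for testing. The annotation of the platform gave 1 gene for 13513, several for 503 and none for 8730, and 13436 of the first were matched to the TAIR10.1 annotation.

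Group means of all arrays were estimated and compared in limma 3.58.1 (R 4.3.3), without a replicate block (6 residual and 4.24 prior degrees of freedom). SE values are from this fit. Group membership came from the sample titles. The number of arrays limits the precision. The fit and the rule were tested on simulated data. For a list gene measured more than once, the brightest probe set was used. Every member with 1 listed gene is named, and values on every array were to be given for the 12 with the largest falls, of which there were 9. Such values were also planned for the members with the lowest and highest shares kept, and of these 249496_s_at and 261673_at are given without them. Values on every array of other probe sets with several or no listed genes were chosen after they had been seen. Members and lists were chosen with earlier results of these data known. The planned search of promoters for motifs was not run, and sequences were not used here. Alternatives were other scalings, a filter on dim probe sets, other fits and leaving out each array.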

Additional observations from a re-analysis of the deposited data

How the results depend on the processing

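Both other scalings picked the same 29 probe sets. Leaving out each array in turn gave 27 to 35 members, and the median share of the rise kept was 19.1 to 31.5%. Group medians picked 32 probe sets, 28 of them members, and means of linear intensity 30, with all 29 among them. The members called lower with mutant than with wild-type pollen numbered 23 to 28, and those called higher with mutant pollen than unpollinated 15 to 20, under every setting except the filter on dim probe sets. That filter kept the probe sets above the median of the means and with it only 3 members, of which 2 were called lower and 3 higher. With a replicate block the counts were 27 and 19. Over all probe sets, deviations of same-numbered arrays correlated at -0.1619 to 0.3126, the highest between wild-type and mutant array 3. Arrays of different number correlated at -0.3707 to 0.171. In the members, array 2 was the highest wild-type and the highest mutant array in 26 of 29 each. The numbers were not taken as pairs, and an effect shared by same-numbered arrays was not tested. The difference of AT5G11820 between mutant pollen and unpollinated pistils ran from -0.254 to 0.009 when each array was left out, and changed sign without unpollinated array 1 alone. AT3G26880 passed between mutant and wild-type pollen without mutant array 2. Dim levels before pollination limit how well a small kept share can be measured.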
